A study of Mus musculus with 2 samples.

Results

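The genes described here are 42 members of the antioxidant, glutathione and thioredoxin systems, chosen by name for what their products do, out of 20330 gene identifiers in the table. All 42 were found there. They were measured by RNA sequencing in adipose tissue macrophages (ATM), which are macrophages of fat tissue, sorted from visceral fat with F4/80 and CD11b antibodies. The WT library came from hMRP8cre-;Hif-1αfl/fl;ApoE-/- mice and the KO library from hMRP8cre+;Hif-1αfl/fl;ApoE-/- mice, all of strain C57BL/6 and kept for 12 weeks on high-fat food. By these labels both libraries carried floxed Hif1a alleles and were ApoE-/-. They differed in the Cre recombinase, which the hMRP8 promoter drives in myeloid cells including monocytes and neutrophils. The methods of the study give an age of 4 weeks for mice at the start of this food. There was 1 library per genotype, and whether animals were pooled is not given in the sources used here. The differences below therefore come without replicates and without p-values.

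Cells remove reactive oxygen in steps. Superoxide dismutases turn superoxide into hydrogen peroxide, and catalase, glutathione peroxidases and peroxiredoxins reduce the peroxide. Peroxiredoxins are restored by thioredoxin and glutathione peroxidases by glutathione, both of which draw electrons from NADPH through reductases. The transcription factor NRF2, encoded by Nfe2l2, raises many of these genes when its inhibitor KEAP1 is oxidised, by binding the antioxidant response element. In macrophages these enzymes limit damage from the oxidants made by the NADPH oxidase, and heme from engulfed cells is degraded by HMOX1 and the biliverdin reductases.

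Expression is given as FPKM, fragments scaled to transcript length and to the size of the library, so levels can be set side by side between genes. A change is log2(FPKM + 1) in KO minus that in WT, and a gene was counted as risen or fallen when the change reached 3-fold (1.58 on this scale). Depth was estimated from the smallest recurring FPKM step at about 6390000 fragments in WT and 8000000 in KO. Of the sort genes, Itgam had 128 FPKM in each library, and Adgre1 had 299 FPKM in WT against 239 in KO. The targeted gene Hif1a had 30.4 FPKM in WT and 21.0 in KO, so its whole-gene level did not separate the libraries by 3-fold. Apoe, labelled -/- in both, had 94.3 FPKM in WT and 117 in KO. There was no library with intact Apoe to set beside them, so these whole-gene levels do not test that label. Single exons of either gene were not analysed here. Fewer cells of a type and less RNA per cell cannot be told apart in such bulk samples.

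Several members have a sequence in their promoter that resembles the element NRF2 binds. The core TGACNNNGC (N is any base) was searched on both strands, so also as GCNNNGTCA, in RefSeq promoter windows of GRCm38.p6 that run from 250 bases before to 50 bases after a gene's start. Windows were found for 37 of the 42 members, and 7 of them (18.9%) held the core, against 14.0% of the 27025 genes with a RefSeq promoter window. The members were Nfe2l2, Sod1, Prdx1, Srxn1, Txnrd1, Gclm and Mgst1. The sequences of 5 of these, which serve peroxide reduction, glutathione synthesis and detoxification, are shown on the strand of the gene with the core in capitals.

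Prdx1: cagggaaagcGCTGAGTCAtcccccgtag
Srxn1: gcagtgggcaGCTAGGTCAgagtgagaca
Txnrd1: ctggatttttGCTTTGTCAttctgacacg
Gclm: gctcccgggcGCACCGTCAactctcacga
Mgst1: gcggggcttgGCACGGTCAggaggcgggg

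They lie at chr4:116685456-116685484, chr2:152105542-152105570, chr10:82859104-82859132, chr3:122245413-122245441 and chr6:138140461-138140489, all on the + strand. The core begins at position -133 from the start in Prdx1, -134 in Gclm, -92 in Txnrd1, -56 in Mgst1 and 29 in Srxn1. A match is a description of the letters and not a measured binding site. Of the 7 genes with the core, Nfe2l2, Sod1, Srxn1, Txnrd1 and Mgst1 were higher and Prdx1 and Gclm lower in KO.

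The shorter core ACGTG, part of the element that HIF-1 binds, was searched in the same windows on both strands. It was present in 10 of the 37 members (27.0%) and in 21.8% of all genes. Of these 10, Keap1, Txnrd2, Gstm1 and Gstp1 were higher in KO, and Gpx1, Prdx4, Glrx2, Gclm, Blvrb and Msrb1 were lower. Blvrb is shown because it lay closest to the 3-fold threshold from within. Its core begins at position -123, in the window chr7:27452285-27452309 on the + strand.

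Blvrb: tttcatctcaACGTGaactgtgtgc

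A further property that the choice of members did not use is selenocysteine, the amino acid that replaces cysteine at the active site of some of these enzymes and is encoded by TGA, elsewhere a stop codon. In the GENCODE M21 annotation 24 mouse genes have such a codon, and 6 of them are members. The sequences show the codon in capitals with 12 bases on either side, from the longest annotated transcript that carries it.

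Gpx1: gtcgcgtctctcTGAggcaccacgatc
Gpx3: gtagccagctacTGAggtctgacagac
Gpx4: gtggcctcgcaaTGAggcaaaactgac
Txnrd1: cagtctggctgcTGAggttaagcccca
Txnrd2: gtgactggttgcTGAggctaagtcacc
Msrb1: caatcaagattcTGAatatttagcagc

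The codons lie at chr9:108339451-108339453, chr11:54907256-54907258, chr10:80054737-80054739, chr10:82896037-82896039, chr16:18477772-18477774 and chr17:24740158-24740160 of GRCm38, all on the + strand. The 6 selenoprotein members had changes between -0.40 and 0.68, and 0 of them reached 3-fold. All but Txnrd2 had a mean above 20 FPKM, where 7.97% of all genes passed 3-fold.

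The whole set was examined first. Of the 42 members, 41 reached 1 FPKM in a library or in both and were compared, and Mgst2, which encodes a microsomal glutathione transferase, was listed at 0 in both. Of the 41, 2 rose and 5 fell past 3-fold. The corresponding shares, 4.88% and 12.2%, compare with 13.6% and 13.7% of all 10297 genes compared. In either direction 17.1% of the members passed 3-fold against 27.3% of all genes. The median change of the members was -0.15, with 19 higher and 22 lower in KO, beside a median of 0.03 over all genes. The median changed sign to 0.03 when the ratio of FPKM was taken without a pseudocount among genes above 0 in both libraries.

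**Figure D1:**
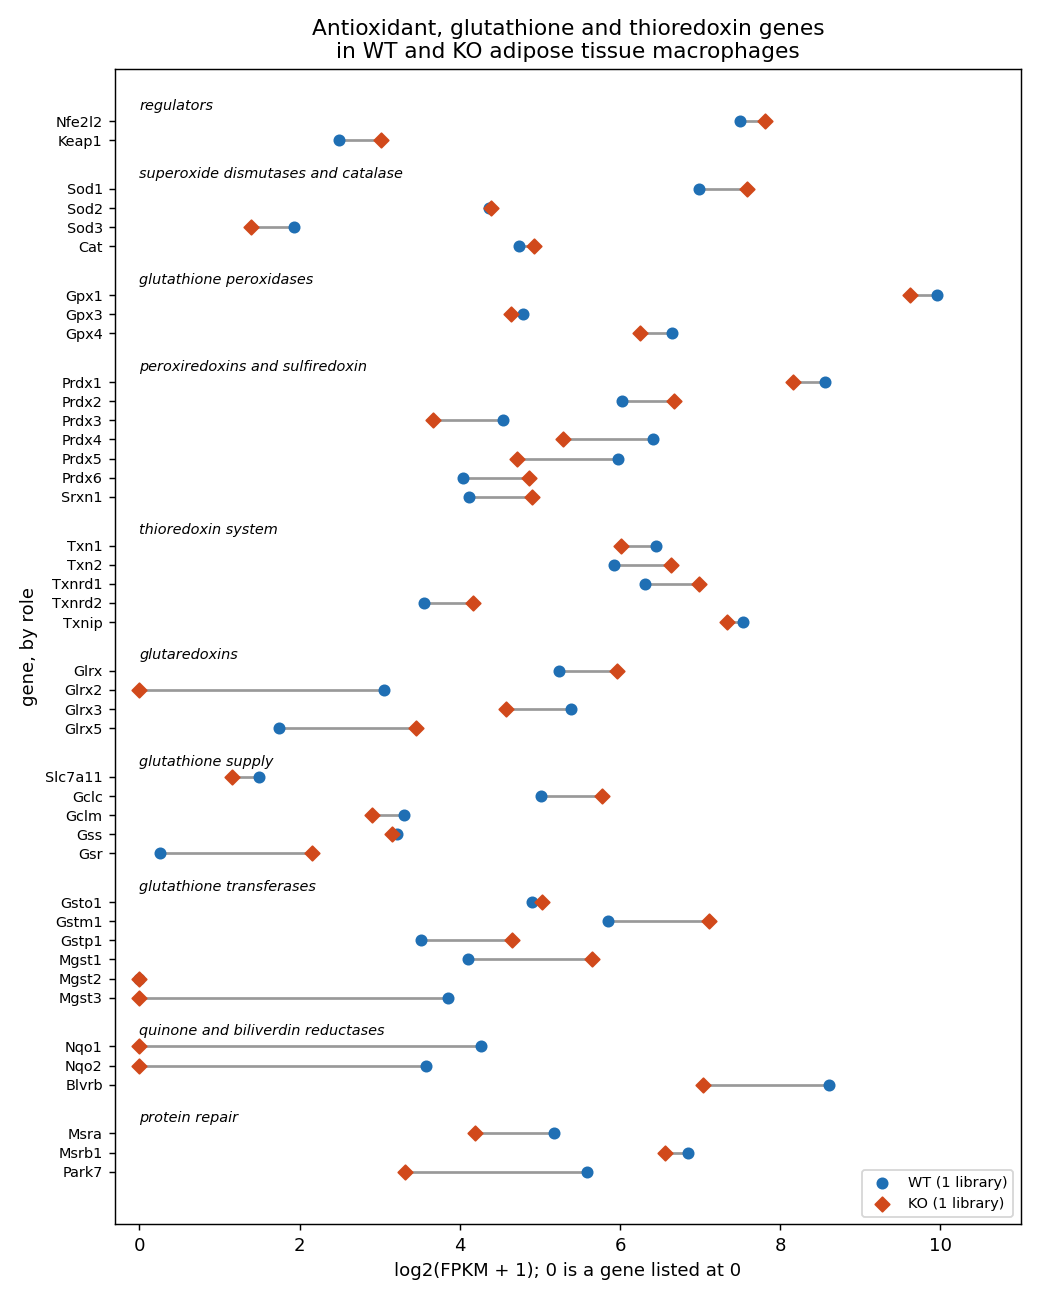
Level of each of the 42 genes in the WT library (circles) and the KO library (diamonds) as log2(FPKM + 1), grouped by role, with 1 library per genotype and no error bars. Gpx1 is highest in both libraries, and Glrx2, Mgst3, Nqo1 and Nqo2 lie above 0 in WT and at 0 in KO.

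Members of high expression stayed closer together. At a mean of at least 20 FPKM, 1 of 26 members passed 3-fold, which was Park7, and 7.97% of the 3126 genes at that level did so. A change under 2-fold was found for 20 of these 26 (76.9%), against 80.1% of genes at that level. By mean level, the members past 3-fold were 2 of 4 at 1 to 5 FPKM (54.1% of all genes there) and 4 of 7 at 5 to 10 (32.4%). They were 0 of 4 at 10 to 20 FPKM (20.6%) and 1 of 12 at 20 to 50 (11.7%). Higher up there were 0 of 6 at 50 to 100 FPKM (4.95%) and 0 of 8 at 100 to 1000 (1.99%). Of the 36 members that reached 1 FPKM in both libraries 2 passed 3-fold, against 11.5% of such genes. The counts by role given for small groups stand beside these shares, since a few genes at high levels would seldom pass 3-fold. The summed FPKM of all members was 3416 in WT and 3003 in KO, which was 0.583% and 0.528% of the total. Gpx1 alone made up 29.1% of that sum in WT and 26.2% in KO.

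**Figure D2:**
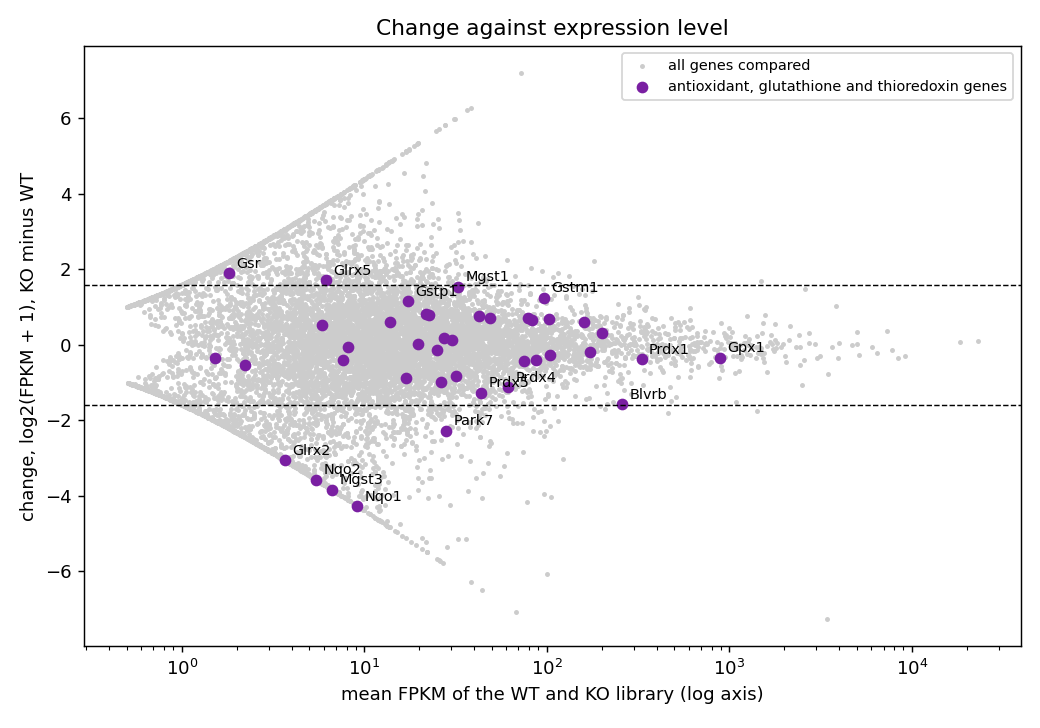
Change from WT to KO against the mean FPKM of both libraries on a log axis, for all genes compared (grey) and for the 41 antioxidant, glutathione and thioredoxin genes compared (purple), with dashed lines at 3-fold. The spread of all genes narrows as expression rises, and Blvrb lies at the lower edge of the genes of its level while Nqo1, Nqo2, Mgst3 and Glrx2 lie on the line formed by genes listed at 0 in KO.

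The regulators were expressed at very different levels. Nfe2l2 had 179 FPKM in WT and 223 in KO, a change of 0.31. Keap1, the adaptor that sends NRF2 to degradation, had 4.61 and 7.12 FPKM. Both were thus somewhat higher in KO and neither approached 3-fold, and 10.9% of the exon bases of Keap1 overlap an antisense gene, whose reads cannot be told apart in a library that does not mark strand.

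The 8 members best known as NRF2 targets did not move in 1 direction. Gclc, Srxn1, Txnrd1 and Gsr were higher in KO, and Nqo1, Gclm, Slc7a11 and Prdx1 were lower. Past 3-fold, 1 rose and 1 fell, and the median change of the 8 was 0.17. On the FPKM ratio among genes above 0 in both libraries, which leaves out Nqo1, the median was 0.68. The 2 of 8 past 3-fold are close to the 27.3% of all genes.

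Superoxide dismutases and catalase were next. Sod1, the cytosolic copper-zinc enzyme, had 126 FPKM in WT and 191 in KO, a change of 0.60. Sod2, the mitochondrial manganese enzyme, had 19.6 FPKM in WT and changed by 0.02. The level of Sod1 was thus 6.41 times that of Sod2 in WT and 9.59 times in KO.

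Cat, which encodes catalase, had 25.7 FPKM in WT and 29.3 in KO. Sod3, the secreted dismutase, had 2.80 and 1.63 FPKM. None of these genes reached 2-fold.

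Gpx1, the cytosolic glutathione peroxidase, was the most abundant member in both libraries. It had 993 FPKM in WT and 787 in KO, a change of -0.34. Gpx4, which reduces lipid peroxides in membranes and so protects cells from ferroptosis, had 99.7 FPKM in WT and 75.2 in KO. Gpx3, the secreted form found in plasma, had 26.6 and 23.9 FPKM. All 3 glutathione peroxidases were lower in KO by less than 2-fold, and their order and spacing were alike in both libraries, with Gpx1 at 9.96 times the level of Gpx4 in WT and 10.5 times in KO.

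Among the peroxiredoxins, Prdx1 was highest in both libraries. This cytosolic enzyme had 376 FPKM in WT and 286 in KO, a change of -0.39. Prdx2, its close cytosolic relative, had 64.0 FPKM in WT and 101 in KO, a change of 0.65. Prdx1 was at 5.87 times the level of Prdx2 in WT and at 2.83 times in KO. Of the exon bases of Prdx2, 5.67% overlap Junb and 5.8% overlap Rnaseh2a on the other strand.

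The peroxiredoxins of organelles were lower in KO. Prdx4, the form of the endoplasmic reticulum, had 84.5 FPKM in WT and 38.0 in KO, a change of -1.13. Prdx5, found in mitochondria and peroxisomes, had 62.1 and 25.2 FPKM, a change of -1.27. Prdx3, the mitochondrial form, had 22.2 FPKM in WT and 11.7 in KO, a change of -0.88. These 3 differences lay between 1.91-fold and 2.46-fold, under the 3-fold threshold, and 19.1% of the exon bases of Prdx5 overlap Trmt112 on the other strand.

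Prdx6, which has a single catalytic cysteine and uses glutathione, had 15.5 FPKM in WT and 28.0 in KO, a change of 0.81. Srxn1 encodes sulfiredoxin, which repairs overoxidised peroxiredoxins, and had 16.3 and 28.8 FPKM, a change of 0.78. Of the 7 genes of this group, 3 were higher and 4 lower in KO, and 0 passed 3-fold.

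The thioredoxin system had 5 members, and 0 of them reached 2-fold. Txn1, the cytosolic thioredoxin, had 86.3 FPKM in WT and 63.6 in KO, a change of -0.43. Txn2, the mitochondrial thioredoxin, had 59.5 FPKM in WT and 98.7 in KO, a change of 0.72. The order of the pair was therefore opposite in the libraries, with Txn1 at 1.45 times the level of Txn2 in WT and at 0.644 times in KO.

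Both thioredoxin reductases were higher in KO by similar amounts. Txnrd1, the cytosolic enzyme, had 78.7 FPKM in WT and 126 in KO, a change of 0.68. Txnrd2, the mitochondrial enzyme, had 10.7 and 17.0 FPKM, a change of 0.61. Their ratio was accordingly close to the same in the libraries, 7.33 in WT and 7.46 in KO.

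Txnip, which binds and inhibits thioredoxin and limits glucose uptake, was among the 5 highest members in both libraries. It had 185 FPKM in WT and 161 in KO, a change of -0.20, and 19.4% of its exon bases overlap an antisense gene.

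The glutaredoxins, which use glutathione to reduce protein disulfides, differed in both directions. Glrx, the cytosolic form, had 36.8 FPKM in WT and 61.3 in KO, a change of 0.72. Glrx3, a form that carries iron-sulfur clusters in the cytosol, had 41.0 and 22.9 FPKM, a change of -0.82. Neither passed 3-fold, at a mean of 20 to 50 FPKM where 11.7% of all genes did. Glrx2 and Glrx5, the mitochondrial forms, passed it in opposite directions. Their means lay at 1 to 5 and 5 to 10 FPKM, where 54.1% and 32.4% of all genes did so.

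Glrx2 (ENSMUSG00000018196, chr1:143716338-143749676 of GRCm38) was at 7.32 FPKM in WT and listed at 0 in KO. Glrx5 (ENSMUSG00000021102, chr12:105032688-105042906), which passes iron-sulfur clusters on in mitochondria, rose from 2.36 FPKM in WT to 9.96 in KO, a change of 1.71. Over the 6 members that act mainly in mitochondria, Sod2, Prdx3, Txn2, Txnrd2, Glrx2 and Glrx5, 4 were higher and 2 lower in KO, with a median change of 0.32. Prdx5, found in mitochondria and peroxisomes, was not counted among these 6 and was lower in KO, with a change of -1.27.

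Genes for the supply of glutathione followed. Gclc, the catalytic subunit of the rate-limiting enzyme of glutathione synthesis, had 31.4 FPKM in WT and 53.7 in KO, a change of 0.76. Gclm, its modifier subunit, had 8.87 FPKM in WT and 6.50 in KO. The catalytic subunit was thus at 3.54 times the level of the modifier subunit in WT and at 8.26 times in KO, where the annotated coding transcripts of Gclm range from 292 to 5589 nt, so that its FPKM depends on which of them was taken.

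Gss, which completes glutathione synthesis, had 8.31 and 7.93 FPKM. Slc7a11, which imports the cystine from which glutathione is made, was low in both libraries, at 1.82 and 1.22 FPKM. Both were within 2-fold.

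Gsr encodes glutathione reductase, which restores oxidised glutathione (ENSMUSG00000031584, chr8:33652523-33698163). It rose from 0.190 FPKM in WT to 3.44 in KO. These levels correspond to an estimated 3 and 68 fragments, and the ratio of 18.1 has an exact 95% interval of 5.94 to 90.1 that covers counting error only. Its change was 1.90 with the pseudocount of 1 and 4.18 on the FPKM ratio, and the gene was low in both libraries.

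The glutathione transferases, which attach glutathione to lipid oxidation products and foreign compounds, were mostly higher in KO. Mgst1, the main microsomal form, had 16.2 FPKM in WT and 49.3 in KO. Its change of 1.54 lay just under the threshold, while the ratio of its FPKM values, 3.03, lay just over it. Gstm1 had 56.9 and 137 FPKM, a change of 1.25.

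Gstp1 had 10.4 FPKM in WT and 24.2 in KO, a change of 1.15. Gsto1, which also reduces dehydroascorbate, had 29.0 and 31.5 FPKM. Mgst3 (ENSMUSG00000026688, chr1:167371966-167393841) went the other way and fell from 13.4 FPKM in WT to a listed 0 in KO. The group's median change was 1.15 over its 5 genes compared, and its summed FPKM was 126 in WT and 242 in KO.

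Gstm1 and Gstp1 belong to clusters of near-identical genes, between which reads may have been divided. Gstm2 rose from a listed 0 in WT to 28.7 FPKM in KO. Gstm5 was likewise at 0 and 9.34 FPKM, and Gstm4 at 4.83 and 5.55. Gstp2 had 7.39 and 6.59 FPKM, so it did not share the difference seen for Gstp1. Values for single genes of these clusters are uncertain for this reason.

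Markers of some other cell types were also higher in KO, beside the transferases. The summed FPKM of 8 fibroblast markers was 55.4 in WT and 101 in KO, with 6 of the 7 compared higher in KO and Pdgfra at 0.0246 and 4.98. For neutrophil markers the sum was 137 in WT and 491 in KO, with S100a9 at 63.4 and 301 FPKM, and all 5 compared were higher. Camp, Ltf, Mmp8 and Elane were listed at 0 in both libraries. Eosinophil markers summed to 6.50 FPKM in WT and 33.1 in KO, all from Alox15 and Ccr3, with Siglecf, Epx and Prg2 listed at 0 in both. Mesothelial markers summed to 0 and 10.6 FPKM, all from Upk3b and Gpm6a, with Msln, Wt1, Krt19 and Lrrn4 listed at 0 in both. Endothelial markers summed to 17.3 and 16.0 FPKM. Of the 4 endothelial markers compared 3 were higher in KO, and Tie1 went from 4.12 FPKM to a listed 0. T cell markers summed to 6.42 and 0 FPKM, which was Thy1 alone, and Cd3d, Cd3e, Cd3g and Lck were listed at 0 in both libraries. Of 7 adipocyte markers, with sums of 7.97 and 8.70 FPKM, Cfd rose, Cidec and Plin4 fell, Lep had 0 and 1.60, and Adipoq, Plin1 and Retn were listed at 0 in both libraries. B cell markers summed to 2.75 FPKM in WT and 6.46 in KO, where Cd79b rose and Cd79a was lower. Dendritic cell markers summed to 124 and 140.3 FPKM, mostly Cd209a at 122 and 131, and mast cell markers to 0 and 1.03. The part of cells of other types in the transferase values was not tested.

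The quinone and biliverdin reductases were all lower in KO, with 2 of the 3 listed at 0 there. Nqo1 (ENSMUSG00000003849, chr8:107388225-107403206), the NAD(P)H quinone reductase often used as a marker of NRF2 activity, was at 18.3 FPKM in WT and listed at 0 in KO. It has 1 annotated transcript, and its WT level rested on an estimated 158 fragments. Nqo2 (ENSMUSG00000046949, chr13:33964687-33988443), a relative that uses another hydride donor, was at 10.9 FPKM in WT and listed at 0 in KO, and 18.9% of its exon bases overlap Serpinb6a on the other strand.

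A listed 0 need not mean that a gene was silent. Mrpl13, a mitochondrial ribosomal protein gene that cells in general use, had 49.2 FPKM in KO and a listed 0 in WT. Of all genes at 5 to 20 FPKM in WT, 7.91% were listed at 0 in KO, and 8.95% the other way round. Among members, 4 of the 12 at this level in WT were listed at 0 in KO, namely Nqo1, Nqo2, Mgst3 and Glrx2, and 0 of 9 the other way round. No fold is given for these 4 genes.

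Blvrb (ENSMUSG00000040466, chr7:27447978-27466144) encodes biliverdin reductase B, which also reduces flavins. It was the second most abundant member in WT at 388 FPKM and the seventh in KO at 129.7 FPKM. Its change of -1.57 lay just under the threshold and its FPKM was 2.99-fold lower. Of the 653 genes at a mean of 100 to 1000 FPKM, 11 had a change as low or lower, and 1.38% of the genes at this level fell past 3-fold.

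Blvra and Hmox1 of heme breakdown, from other lists, were set beside it. Blvra, the main biliverdin reductase, fell from 48.1 FPKM in WT to 5.04 in KO, a change of -3.02. Hmox1, which makes biliverdin from heme, had 937 FPKM in WT and 1576 in KO, a change of 0.75. Of these genes only Blvra passed 3-fold, and they were set side by side after their values had been seen. Red blood cell markers were low, with sums of 11.1 FPKM in WT and 9.66 in KO. Hbb-bs had 11.1 and 5.72 FPKM and Hbb-bt a listed 0 and 3.24, with Alas2 and Slc4a1 listed at 0 in both libraries.

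All 3 genes of protein repair were lower in KO. Park7 (ENSMUSG00000028964, chr4:150897133-150914437), which encodes the oxidation sensor DJ-1, fell from 47.3 FPKM in WT to 8.92 in KO, a change of -2.28 or 5.30-fold on the FPKM ratio. It was the only member above 0 in both libraries that fell past 3-fold. At a mean of 20 to 50 FPKM, 6.43% of all genes fell past 3-fold.

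The methionine sulfoxide reductases lay within 3-fold. Msra, which repairs the S form of oxidised methionine, had 35.2 FPKM in WT and 17.2 in KO, a change of -0.99. Msrb1, the selenoprotein that repairs the R form, had 114 and 93.8 FPKM, a change of -0.28.

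Other genes of the same pathways were taken from 5 lists. Of 19 partners and further targets of NRF2, all were compared, 2 rose and 2 fell, against 13.6% and 13.7% of all genes, and the median change was 0.60. By sign alone, 14 were higher and 5 lower in KO, beside 5183 higher and 4950 lower of all genes with a symbol compared. Osgin1, an oxidative stress response gene, rose from 5.68 FPKM in WT to 40.9 in KO. Idh1, a cytosolic source of NADPH, fell from 44.2 to 12.9 FPKM. The other genes of the list past 3-fold were Bach2, which rose, and Me1, which fell, and both were under 20 FPKM in each library. These 2 dropped out when 1 FPKM was required in both libraries, which left 2 of the 4.

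Small MAF proteins pair with NRF2 on DNA. Mafk had 37.5 FPKM in WT and 103 in KO, a change of 1.44, and Mafg was at 9.49 and 23.6. Maff was lower, at 96.8 and 52.3 FPKM. Bach1, which competes with NRF2 for these partners, had 52.6 and 79.6 FPKM. These 4 genes lay within 3-fold.

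**Figure D3:**
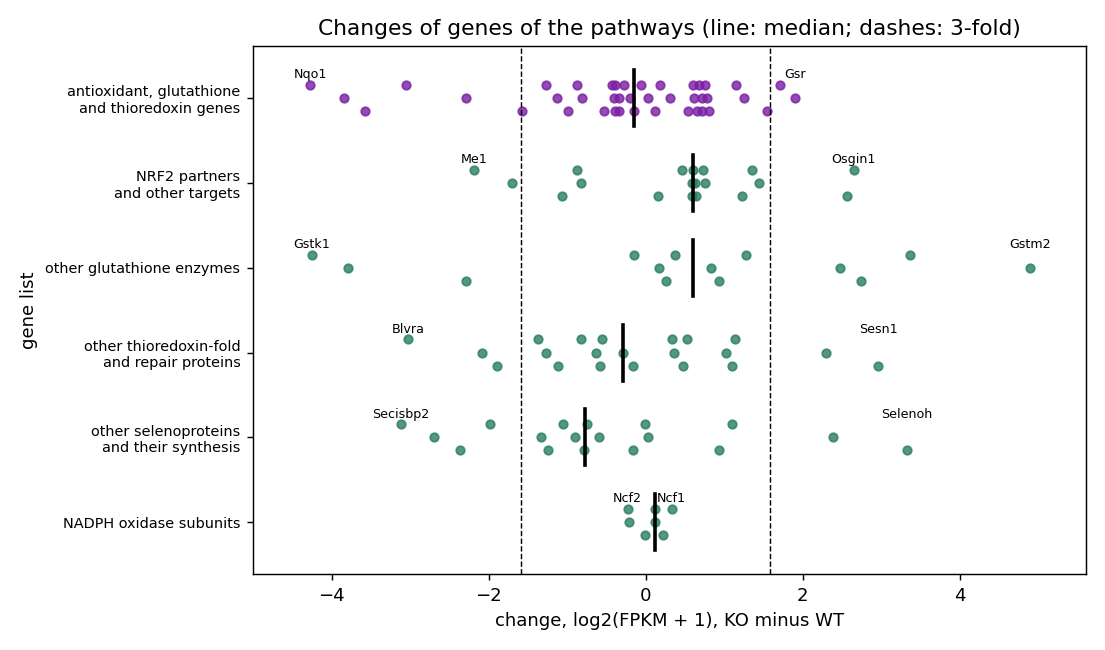
Change from WT to KO of each gene compared in the antioxidant, glutathione and thioredoxin set (purple) and in 5 lists of other genes of these pathways (green), with the median as a vertical line and 3-fold as dashed lines. The NADPH oxidase subunits lie between -0.23 and 0.33, while the other lists extend past 3-fold on both sides.

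Of 24 other glutathione enzymes, 14 were compared, 4 rose and 3 fell, with a median change of 0.61, where 13.6% and 13.7% of all genes did so. The 7 genes became 0 when 1 FPKM was required in both libraries, 1 on the FPKM ratio and 3 at a mean of at least 5 FPKM, and the median was 0.00 without a filter. All 7 were listed at 0 in a library except Gstt2, at 15.8 FPKM in WT and 0.214 in KO. Of 25 other thioredoxin-fold and repair genes in the table, 21 were compared, 2 rose and 3 fell, with a median of -0.28. Sesn1, from 1.62 to 19.4 FPKM, and Sesn2, from a listed 0 to 3.92, rose, and Blvra, Txndc16 and Txnl4b fell. Without Sesn2 and Txnl4b, which drop out when 1 FPKM is required in both libraries or a mean of at least 5, 3 of the 5 were left.

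Genes that make selenoproteins, and selenoproteins outside the set, were compared too. Of 18 other selenoproteins and synthesis factors compared, 2 rose and 4 fell, against 13.6% and 13.7% of all genes, with a median change of -0.77 and 13 lower in KO. The 6 became 4 when 1 FPKM was required in both libraries or a mean of at least 5. Sephs2, which makes the selenium donor, fell from 18.6 FPKM in WT to 2.02 in KO, and Secisbp2, which recruits the machinery to the selenocysteine codon, fell from 16.9 to 1.06. Sepsecs, which completes selenocysteine on its transfer RNA, rose from a listed 0 to 4.21 FPKM. Secisbp2l, a relative of Secisbp2, had 10.7 and 24.0 FPKM, and the elongation factor gene Eefsec had 2.90 and 2.88. Sephs1, a relative of Sephs2, had 5.77 and 2.27 FPKM, and Trnau1ap, which binds the selenocysteine transfer RNA, had 14.1 and 4.98. Pstk was listed at 0 in both libraries. These genes were named after their values had been seen. Selenos fell from 42.8 to 10.1 FPKM, and Selenoh rose from 3.80 to 47.2.

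Selenop, a secreted selenium carrier and the most abundant selenoprotein gene of the list, had 4936 FPKM in WT and 5022 in KO.

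The source of superoxide was compared last. Of the NADPH oxidase genes, 7 were compared and 0 passed 3-fold, with changes between -0.23 and 0.33. Their means lay between 50 and 1000 FPKM, where 4.95% (50 to 100) and 1.99% (100 to 1000) of all genes passed 3-fold. Cybb, the catalytic subunit, had 114 FPKM in WT and 124 in KO, and its partner Cyba had 527 and 612 FPKM. Ccs, the chaperone that supplies SOD1 with copper, had 20.7 FPKM in WT and 46.5 in KO, within 3-fold. Atox1, the chaperone that supplies copper to pumps of the secretory pathway, had 649.8 and 300.1 FPKM, also within 3-fold.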

How the data were processed

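Poly(A) RNA of sorted ATM was sequenced in 1 WT and 1 KO library. The authors deposited an FPKM value per gene and library. The submitters' processing notes name CASAVA 1.8.2, TopHat2 2.0.9, Cufflinks 2.2.1 and mm9. The annotation and any filter are not given in the sources used here. The values headed mut were used as KO, the one group other than WT.

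Of 20749 rows, 401 full repeats were dropped and 18 rows with other values for an identifier already present were summed. GENCODE M21 gave symbols for 98.5% of identifiers. Lengths, overlaps and coordinates describe GRCm38, not mm9. Genes with at least 1 FPKM in at least 1 library were compared, with a pseudocount of 1, which understates changes of low genes.

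Depth was estimated in genes with a single transcript. FPKM times length less 200 bases (taken as the mean fragment length) has a smallest recurring value, 0.156 in WT and 0.125 in KO per kilobase, read as 1 fragment. Up to 10 such steps, 63.9% and 68.6% of values lay within 0.05 of a whole number. At this depth 3 fragments of a 2000 nt transcript are 0.261 FPKM in WT and 0.208 in KO. Fragment numbers use the median coding transcript.

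The 42 members and all gene lists were chosen with earlier results of these data known. Members past 3-fold or at a mean of at least 20 FPKM were to be given singly, and the others were given too. Of the other lists, genes past 3-fold with at least 20 FPKM in a library were named, and further genes beside them were chosen after their values were seen. The calculations were tested on simulated data. Python 3.11.15, pandas 2.3.3 and numpy 2.4.6 were used.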

Additional observations from a re-analysis of the deposited data

How the results depend on the processing

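Keeping genes that reached 1 FPKM in both libraries left 1 member risen and 1 fallen, Glrx5 and Park7, and 429 risen and 447 fallen genes in all, because genes at or near 0 in a library drop out. At a mean FPKM of at least 5, 1 member had risen, and 598 genes had risen and 646 fallen. A 2-fold threshold gave 5 members risen and 8 fallen, with 2380 and 2314 of all genes. On the FPKM ratio among genes above 0 in both libraries, 1 member had fallen and the members' median change turned to 0.03, since the genes listed at 0 in KO were left out. Mgst1 joined the risen members there, with either smaller pseudocount and when the libraries were scaled to the same sum, which gave 3. The glutaredoxin median turned to 0.72 under both stricter filters and to 0.74 on the FPKM ratio, without Glrx2. The median of other thioredoxin-fold and repair genes became 0.03 under the same mean filter. Of the changes of single members recomputed, 345 moved by less than 1.5-fold and 11 by more, all of Nqo1, Nqo2, Mgst3, Glrx2 or Gsr. No paired analysis was possible because there was 1 library of each genotype. Depth limits Gsr, at an estimated 3 fragments in WT, more than any other member above 0 in both libraries.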
